A study of Mus musculus with 18 samples.

Results

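The genes described here are 34 mouse genes of glucose use, grouped by the step they serve: glucose transport, upper and lower glycolysis, lactate and pyruvate handling, the oxidative and non-oxidative arms of the pentose phosphate pathway, and 2 genes at the branches between them. They were chosen by name from the pathway, with earlier results of these data known. All 34 were found among the 54347 genes of the deposited count table. Leukemia stem cells (LSCs) of the marrow had been sorted from mice of strain C57BL/6JRj on day 30 post induction, 7000 cells per mouse. The mutant group held 5 mice of genotype Prx1-Cxcl12-mutant (mice 6, 7, 8, 10 and 12) and the control group 4 mice of genotype Prx1-Cxcl12-wild type (mice 1, 2, 3 and 4). Each mouse was profiled in 2 technical libraries by MARS-seq, a method that reads the 3′ ends of polyadenylated transcripts, here adapted to bulk RNA. Cxcl12 encodes a chemokine of the marrow stroma, and Prx1 is the name of a promoter used in mice to reach mesenchymal stromal cells of the limb bones. A deletion driven by it lies in the stroma around the leukemia cells and not in the sorted cells themselves. The leukemia driver, the sorting markers, the sex and the age of the mice are not stated in the sources used here.

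Glycolysis turns glucose into pyruvate and yields ATP without oxygen. Hexokinase traps glucose in the cell as glucose 6-phosphate, from which carbon either goes on to pyruvate and lactate or leaves for the pentose phosphate pathway, which supplies NADPH for redox defence and ribose for nucleotides. Dividing blood cells and leukemia cells are known for a high flux through lactate dehydrogenase, and normal blood stem cells for a reliance on glycolysis in the marrow.

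The mouse was the unit of replication, with both libraries of a mouse summed. The mice are separate animals and the libraries are not. Total counts were 11766467 to 16784991 per control mouse and 15959029 to 25485899 per mutant mouse. Levels are given as CPM, counts scaled to library size with TMM factors, and fold changes as log2 of mutant over control, so a positive value means a higher level in mutant cells. Of the progenitor and LSC markers examined, all 7 were detected and tested, and their summed level was 641 to 942 CPM in controls and 551 to 739 CPM in mutants, with 1 of the 7 above 0 and 6 below. Markers of mature neutrophils summed to 400.1 to 917 CPM in controls and 170.2 to 409 CPM in mutants. Of these 8 markers 3 were above 0 and 4 below, and the untested one, Ly6g, was at 0.53 CPM or less in every mouse. Cell cycle markers summed to 1388 to 1603 CPM in controls and 1496 to 1816 CPM in mutants, with 6 of 6 above 0. All 5 monocyte and macrophage markers tested were below 0, and none was called. The marker called was Itga2b, listed for megakaryocytes and platelets, at -1.89 (SE 0.30, edgeR adjusted p = 0.0427). It had 7 to 39 counts per mouse, with means of 2.48 CPM in controls and 0.67 CPM in mutants. Gp9, of the same list, was at 0.17 (SE 0.21). The part of these differences in the values below was not tested, and in such bulk samples fewer cells of a type and less RNA per cell cannot be told apart.

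None of the 34 genes was called in the comparison of mutant with control cells. All 34 passed the filter on low counts, and 0 of them passed an edgeR adjusted p under 0.05, where 9 of 12973 genes tested did (0.0694%, with 0.0231% higher and 0.0462% lower). At an unadjusted p under 0.05 there were 4 members, Ldha on the higher side and Ldhb, Hk2 and Hk3 on the lower side, or 4 of 34 beside 9.85% of all genes tested. The groups of mice did not overlap for 1 member, Ldha, beside 4.0% of all genes. Fold changes were above 0 for 19 members and below 0 for 15, beside 51.7% above 0 over all genes. Their median was 0.022 and that of all genes 0.009, and they ran from -0.42 for Ldhb to 0.52 for Aldoc. The DESeq2 test on the same counts called 90 genes and again 0 of the members, with the smallest adjusted p among them, 0.195, for Ldha. The limma-voom test called 9 genes and 0 members, with 2 members at an unadjusted p under 0.05.

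The 95% intervals were taken gene by gene and not adjusted for the number of genes, so they do not bound all members jointly. The 95% interval of the fold change lay within 1.5-fold in either direction for 31 members and within 2-fold for 33. The exception was Aldoc, the member with the fewest counts. The median standard error was 0.12 for the members and 0.15 for all genes. The members together took 1.11% ± 0.0362 of the counts in controls (SD, n = 4) and 1.11% ± 0.06 in mutants (SD, n = 5).

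**Figure D1:**
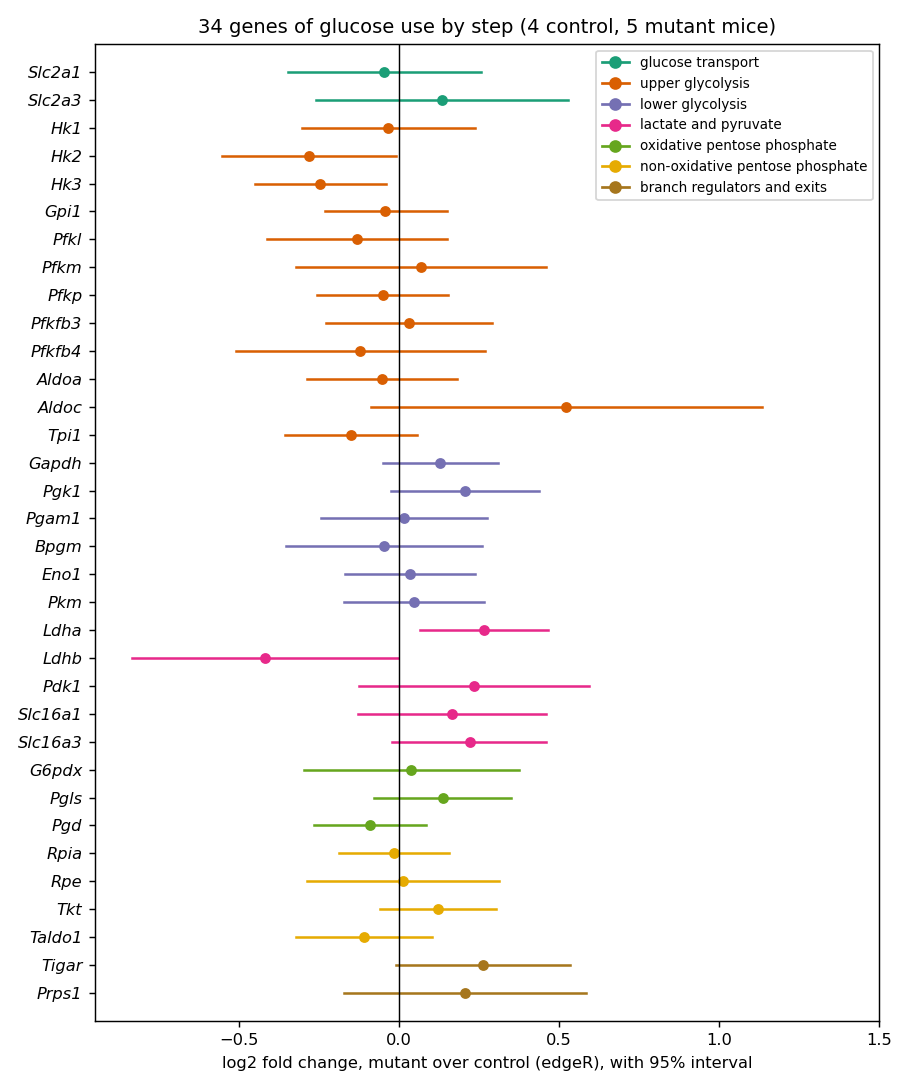
The log2 fold change of each of the 34 genes (mutant over control, points) with its 95% interval (lines) from edgeR, grouped and coloured by step, for 5 mutant and 4 control mice. The intervals are not adjusted for the number of genes. Those of Ldha, Ldhb, Hk2 and Hk3 leave 0 out, and the widest, that of Aldoc, runs from -0.09 to 1.13.

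For the glucose carriers, 1 gene was above 0 and 1 below, and neither differed by more than the spread between mice. Slc2a1, which encodes GLUT1, the carrier of basal uptake in blood cells, had 21.96, 17.5, 19.0 and 20.9 CPM in controls 1 to 4. In mutants 6, 7, 8, 10 and 12 it had 17.5, 24.4, 16.2, 16.5 and 21.4 CPM. The highest and the lowest value were both in mutants, and the groups overlapped widely (-0.05, SE 0.14). Slc2a3, which encodes the high-affinity carrier GLUT3, had 11.7, 8.79, 5.86 and 7.64 CPM in controls and 8.65, 8.51, 9.06, 9.13 and 11.1 CPM in mutants. All 5 mutants lay inside the range of the controls (0.13, SE 0.18). The direction of both genes turned when libraries or mice were left out. The edgeR adjusted p was 0.935 for Slc2a1 and 0.835 for Slc2a3.

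In upper glycolysis, the steps from glucose to triose phosphate, 9 of 12 genes had a fold change below 0 and 3 above, with a median of -0.052. The 2 hexokinase genes Hk2 and Hk3 stood furthest below 0. Hk2 encodes the inducible hexokinase that binds mitochondria, and Hk3 the hexokinase of myeloid cells. In the controls Hk2 had 27.4, 29.3, 21.4 and 33.9 CPM, and in the mutants 22.6, 23.7, 24.6, 24.3 and 20.1 CPM. All 5 mutants were below the control mean, and control 3 lay among the mutants, so the groups overlapped. The means were 28.01 ± 5.15 CPM (SD, n = 4) and 23.1 ± 1.81 CPM (SD, n = 5), a log2 difference of -0.28 (SE 0.125) with an edgeR adjusted p of 0.486.

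The levels of Hk3 were 492.7, 553, 575 and 499.6 CPM in controls 1 to 4 and 411, 412, 436, 494 and 480.5 CPM in mutants. Only mutant 10 reached the range of the controls, and it passed control 1 alone. The means were 530.0 ± 40.1 CPM (SD, n = 4) and 447 ± 38.5 CPM (SD, n = 5), a log2 difference of -0.25 (SE 0.09) with an edgeR adjusted p of 0.41. Myeloid identity markers summed to 718.5 to 871 CPM in controls and 582.5 to 823 CPM in mutants, with 5 of 5 below 0, and their part in the Hk3 values was not tested. Hk1, the hexokinase of most tissues, averaged 40.6 ± 5.69 CPM over the controls and 39.6 ± 5.55 CPM over the mutants (SD, n = 4 and 5). The technical libraries gave different sizes for Hk2, at -0.16 (SE 0.15) in the first libraries and -0.45 (SE 0.15) in the second, and -0.17 (SE 0.12) without control 4. Hk3 stayed between -0.28 and -0.20 under every alternative tried.

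The next steps differed by less than the spread between mice. Gpi1, which turns glucose 6-phosphate into fructose 6-phosphate, averaged 712 ± 28.7 CPM over the controls and 692 ± 54.5 CPM over the mutants (SD, n = 4 and 5). Of the 3 phosphofructokinase genes, which encode the committed step, Pfkl was at -0.13 (SE 0.13), the muscle isoform gene Pfkm at 0.067 (SE 0.18) and the platelet isoform gene Pfkp at -0.05 (SE 0.09). Pfkp had 54.5, 53.7, 55.0 and 60.1 CPM in controls and 43.6, 57.4, 55.1, 56.9 and 56.5 CPM in mutants. Mutant 6 was the lowest of the 9 mice and the other mutants lay within the control range.

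Pfkfb3 and Pfkfb4 encode the enzymes that make and remove fructose 2,6-bisphosphate, the activator of phosphofructokinase. Pfkfb3 had 11.9, 15.02, 11.99 and 12.8 CPM in controls and 13.6, 12.7, 15.1, 13.3 and 11.4 CPM in mutants, with the groups mixed throughout (0.03, SE 0.12). The log2 fold change of Pfkfb4 was -0.12 (SE 0.18). Aldoa, the main aldolase gene of blood cells, had 594, 726, 771 and 678 CPM in controls and 566.5, 711.5, 640.1, 667.5 and 750.0 CPM in mutants, again overlapping (-0.05, SE 0.11). The brain aldolase gene Aldoc had the largest fold change of all members and the widest interval. It was at 2.54 ± 1.154 CPM over the controls and 3.67 ± 0.80 CPM over the mutants (SD, n = 4 and 5), from 20 to 105 counts per mouse, with an edgeR adjusted p of 0.563. With a mouse left out Aldoc ran from 0.355 (SE 0.28, without control 1) to 0.88 (SE 0.25, without control 4), and a total count covariate gave 0.225 (SE 0.36). Tpi1, the triose phosphate isomerase gene, was below the lowest control in 4 of 5 mutants and above the highest in mutant 8 (-0.15, SE 0.095).

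In lower glycolysis, the steps from triose phosphate to pyruvate that return ATP, 5 of 6 genes had a fold change above 0 and 1 below, with a median of 0.04. Gapdh, the dehydrogenase that makes NADH, had 2985, 3160, 3525 and 3208 CPM in controls and 3288, 3552, 3612, 3558 and 3584 CPM in mutants. In 4 of 5 mutants it was above every control, and mutant 6 fell between controls 4 and 3. The difference was small (0.13, SE 0.08), with an edgeR adjusted p of 0.632. The first ATP-yielding kinase, Pgk1, was at 301 ± 32.6 CPM over the controls and 347 ± 36.7 CPM over the mutants (SD, n = 4 and 5), a log2 difference of 0.205 (SE 0.11, edgeR adjusted p = 0.544).

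Pgam1, the mutase that follows, was at 0.014 (SE 0.12), and Bpgm, which makes 2,3-bisphosphoglycerate, at -0.05 (SE 0.14). The enolase gene Eno1 was at 174 ± 8.41 CPM over the controls and 178.5 ± 17.9 CPM over the mutants (SD, n = 4 and 5). Eno1 shares its transcript end with Eno1b, a copy 99.4% identical over the last 500 bases, which took 52.9% to 64.9% of the counts of the pair in each mouse. The split between them is therefore uncertain, and with both summed the log2 difference was 0.049 (SE 0.09). Pkm, the pyruvate kinase gene, had 533, 599, 580.2 and 564 CPM in controls and 508, 533.5, 674, 636 and 587 CPM in mutants. Both the lowest and the highest mouse were mutants (0.046, SE 0.10). The files do not separate the M1 and M2 forms of pyruvate kinase.

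Of the 5 lactate and pyruvate genes, 4 had a fold change above 0 and 1 below, with a median of 0.22. Ldha, which encodes the M subunit of lactate dehydrogenase, favouring lactate formation, had 359, 377, 379 and 376.5 CPM in controls 1 to 4. It had 438, 527, 432, 417 and 424 CPM in mutants 6, 7, 8, 10 and 12. Every mutant was above every control, and Ldha was the 1 member with groups that did not overlap. The means were 373 ± 9.34 CPM (SD, n = 4) and 448 ± 45.3 CPM (SD, n = 5), a 1.20-fold difference with a 95% interval of 1.05-fold to 1.38-fold (log2 0.26, SE 0.09). It did not pass, with an edgeR adjusted p of 0.375. Mutant 7 stood apart from the other mutants in this gene, and it also had the largest total count, 25485899, and 0.0701% of its counts in mitochondrially encoded genes, against 0.161% to 0.263% in the other mice. Without mutant 7 the log2 difference of Ldha was 0.20 (SE 0.08). With the total count as a covariate it was 0.15 (SE 0.12), and within each set of technical libraries taken alone the groups met or overlapped. Total counts were mostly higher in mutants, so depth and group can be told apart only in part.

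Ldhb encodes the H subunit, which favours the use of lactate. It had 10.9, 8.67, 11.1 and 6.64 CPM in controls and 5.01, 6.90, 8.94, 7.17 and 6.64 CPM in mutants. All mutants were below the control mean, while controls 2 and 4 lay within the mutant range. The means were 9.33 ± 2.11 CPM (SD, n = 4) and 6.93 ± 1.401 CPM (SD, n = 5), a log2 difference of -0.42 (SE 0.19) with an edgeR adjusted p of 0.503. It rested on 91 to 214 counts per mouse, and ran from -0.55 without control 4 to -0.32 without control 3.

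The balance of the subunit genes within a mouse does not depend on library size. The log2 ratio of Ldha to Ldhb counts was 5.35 ± 0.36 in controls (SD, n = 4) and 6.03 ± 0.33 in mutants (SD, n = 5), a 1.6-fold higher ratio. Mice 6, 7, 10 and 12 of the mutants were above every control, and mutant 8 was below control 4. The ratio was picked with the values of its genes in view, so it is a description and was not tested.

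**Figure D2:**
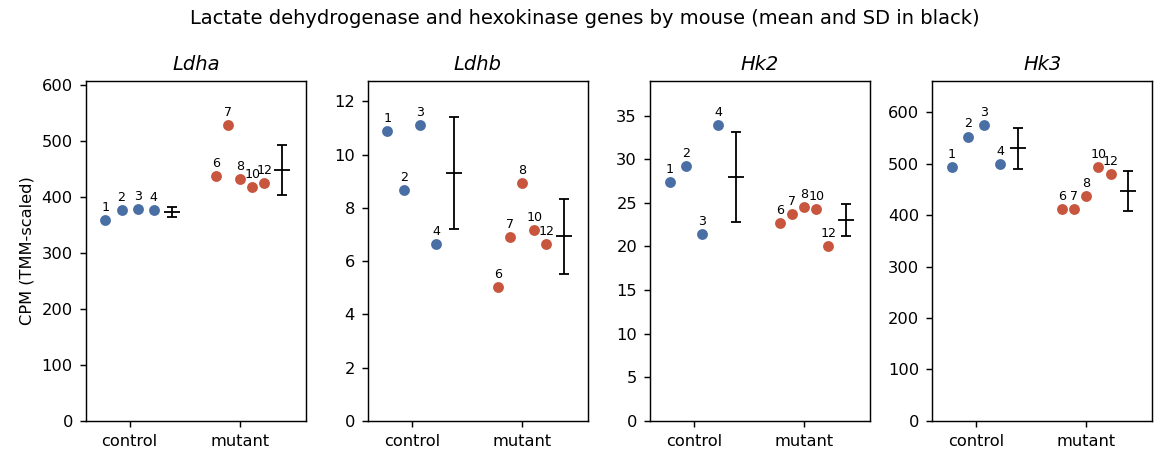
CPM in each mouse (points, numbered by mouse) for Ldha, Ldhb, Hk2 and Hk3, with the group mean and SD in black beside them, for 4 control and 5 mutant mice. Ldha is the one panel without overlap between groups, and the groups overlap in the other 3, where 1 mutant lies below every control for Ldhb, 1 for Hk2 and 4 for Hk3.

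Pdk1 encodes a kinase that switches off pyruvate dehydrogenase and so keeps pyruvate out of mitochondria. It had 19.1, 21.4, 21.2 and 21.4 CPM in controls and 22.3, 31.1, 19.5, 18.1 and 31.1 CPM in mutants. The controls were close together, mutants 7 and 12 stood far above them, and mutant 10 was the lowest of all mice (0.23, SE 0.165, edgeR adjusted p = 0.667). Without mutant 7 or without mutant 12 the log2 difference was 0.13 (SE 0.16). Slc16a1 encodes MCT1, a lactate carrier that works in both directions, and had 14.3, 16.7, 20.2 and 14.3 CPM in controls and 16.6, 21.3, 19.8, 18.5 and 15.5 CPM in mutants. The groups were mixed (0.16, SE 0.14).

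Slc16a3 encodes MCT4, the carrier of lactate export in glycolytic cells. It had 34.9, 37.3, 37.5 and 30.9 CPM in controls and 31.8, 41.9, 42.2, 44.7 and 43.9 CPM in mutants. In 4 of 5 mutants it was above every control, and mutant 6 was near the lowest control, so the groups overlapped (0.22, SE 0.11, edgeR adjusted p = 0.537). This difference differed in size between the technical libraries, at 0.062 (SE 0.145) in the first and 0.36 (SE 0.15) in the second.

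The promoters of the hexokinase and lactate dehydrogenase genes above are shown because these 4 genes had the smallest p-values among the members and, as pairs of alternative enzymes for 1 step, lay on the same side of 0 (hexokinases) or on opposite sides (lactate dehydrogenases). Each window runs from 250 bases before to 50 bases after the RefSeq transcript start on GRCm38.p6, read 5′ to 3′ on the gene's strand. Capitals mark ACGTG, the core that hypoxia-inducible factors read, on either strand (so also as CACGT). Where 2 such matches overlap they form CACGTG, an E-box, the kind of site read by MYC. The windows are chr6:82774405-82774704 (minus strand) for Hk2, chr13:55021336-55021635 (minus) for Hk3, chr7:46845554-46845853 (plus) for Ldha and chr6:142507908-142508207 (minus) for Ldhb.
Hk2: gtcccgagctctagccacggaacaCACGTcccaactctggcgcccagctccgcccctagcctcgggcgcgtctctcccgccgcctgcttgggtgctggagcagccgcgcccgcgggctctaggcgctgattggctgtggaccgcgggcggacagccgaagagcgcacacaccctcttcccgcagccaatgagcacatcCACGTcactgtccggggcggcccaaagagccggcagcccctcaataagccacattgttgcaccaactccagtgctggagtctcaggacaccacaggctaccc
Hk3: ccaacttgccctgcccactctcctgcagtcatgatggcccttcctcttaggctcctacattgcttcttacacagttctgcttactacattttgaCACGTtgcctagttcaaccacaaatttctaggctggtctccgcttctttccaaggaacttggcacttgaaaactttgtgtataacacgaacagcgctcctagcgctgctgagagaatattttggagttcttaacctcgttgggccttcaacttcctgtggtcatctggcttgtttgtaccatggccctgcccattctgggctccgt
Ldha: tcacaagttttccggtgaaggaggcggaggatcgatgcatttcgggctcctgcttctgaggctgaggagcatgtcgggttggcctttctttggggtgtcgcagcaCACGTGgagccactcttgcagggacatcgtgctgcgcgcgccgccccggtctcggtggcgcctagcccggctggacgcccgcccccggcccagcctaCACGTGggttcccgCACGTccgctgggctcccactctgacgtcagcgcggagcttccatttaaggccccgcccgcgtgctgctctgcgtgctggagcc
Ldhb: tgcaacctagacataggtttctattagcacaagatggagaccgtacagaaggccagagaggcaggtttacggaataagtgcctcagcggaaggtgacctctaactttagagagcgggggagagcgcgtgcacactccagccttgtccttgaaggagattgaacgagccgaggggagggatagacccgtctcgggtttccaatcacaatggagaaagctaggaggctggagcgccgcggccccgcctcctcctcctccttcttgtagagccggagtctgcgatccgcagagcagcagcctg
The Ldha window held 3 marked places, 2 of them the full CACGTG, the Hk2 window 2, the Hk3 window 1 and the Ldhb window 0. Ldha has 2 RefSeq windows, and the transcript start of the one shown lies 4329 bases downstream of the first base that GENCODE gives the gene. The other Ldha window, not shown, held 0 matches. A promoter was found for 33 of the 34 members, and not for Slc2a3. ACGTG was in 13 of these 33 windows (39.4%), against 6447 of 32851 windows of all genes (19.6%), and CACGTG in 3 (9.09%) against 7.15%. Each member was counted by 1 window, the one nearest its 5′ end, while the figures for all genes count every window. The shares are therefore not of the same unit. By step, ACGTG was in 5 of 12 upper glycolysis windows, 3 of 6 of lower glycolysis, 3 of 5 of lactate and pyruvate, 1 of 3 of the oxidative arm and 0 of 4 of the non-oxidative arm. It was also in the 1 glucose transport window and in 0 of 2 windows of the branch genes. A match is a run of letters and not a shown binding site, and both higher and lower genes held it.

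In the oxidative arm of the pentose phosphate pathway, which makes NADPH, 2 of 3 genes were above 0 and 1 below. G6pdx, the glucose 6-phosphate dehydrogenase gene of the entry step, had 124, 134, 97.5 and 139 CPM in controls and 118, 154, 89.1, 131 and 144 CPM in mutants. Control 3 and mutant 8 were low and the rest lay together, so the groups overlapped (0.04, SE 0.155, edgeR adjusted p = 0.952). Pgls, the lactonase gene of the next step, was at 172 ± 16.7 CPM over the controls and 189 ± 17.2 CPM over the mutants (SD, n = 4 and 5). Pgd, whose product yields the other NADPH, had 311, 324, 293.5 and 303 CPM in controls and 284, 295, 271.5, 311.5 and 285 CPM in mutants. In 3 of 5 mutants it was below every control (-0.09, SE 0.08), and the 95% interval of the fold ran from 0.832 to 1.06.

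In the non-oxidative arm, which exchanges sugar phosphates with glycolysis, 2 of 4 genes were above 0 and 2 below, with a median of -0.002. Tkt, the transketolase gene, had 671, 754, 720.4 and 764 CPM in controls and 736, 783, 844.5, 791 and 804 CPM in mutants. It was above every control in 4 of 5 mutants (0.12, SE 0.08, edgeR adjusted p = 0.649). Taldo1, the transaldolase gene, had 1250, 1420, 1368 and 1375 CPM in controls and 1385, 1173, 1064, 1337 and 1311 CPM in mutants. Mutants 7 and 8 were the lowest mice and mutant 6 the second highest (-0.11, SE 0.10, edgeR adjusted p = 0.737). The isomerase gene Rpia was at 96.9 ± 6.70 CPM over the controls and 95.8 ± 3.45 CPM over the mutants (SD, n = 4 and 5). Its biological coefficient of variation as estimated by edgeR, 10.3%, was the lowest of the members. The epimerase gene Rpe was at 0.012 (SE 0.14).

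Tigar and Prps1 sit where the branches meet. Tigar encodes a phosphatase that lowers fructose 2,6-bisphosphate and so turns carbon towards the pentose phosphate pathway, and Prps1 the synthetase that takes ribose 5-phosphate into nucleotides. Tigar had 30.6, 27.9, 30.0 and 27.5 CPM in controls and 26.3, 33.8, 32.7, 42.2 and 39.0 CPM in mutants. It was above every control in 4 of 5 mutants and below every control in mutant 6 (0.26, SE 0.125, edgeR adjusted p = 0.52). With a mouse left out it ran from 0.19 (SE 0.12, without mutant 10) to 0.35 (SE 0.11, without mutant 6). Prps1 averaged 37.6 ± 8.67 CPM over the controls and 43.2 ± 9.36 CPM over the mutants (SD, n = 4 and 5), at 0.205 (SE 0.17).

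**Figure D3:**
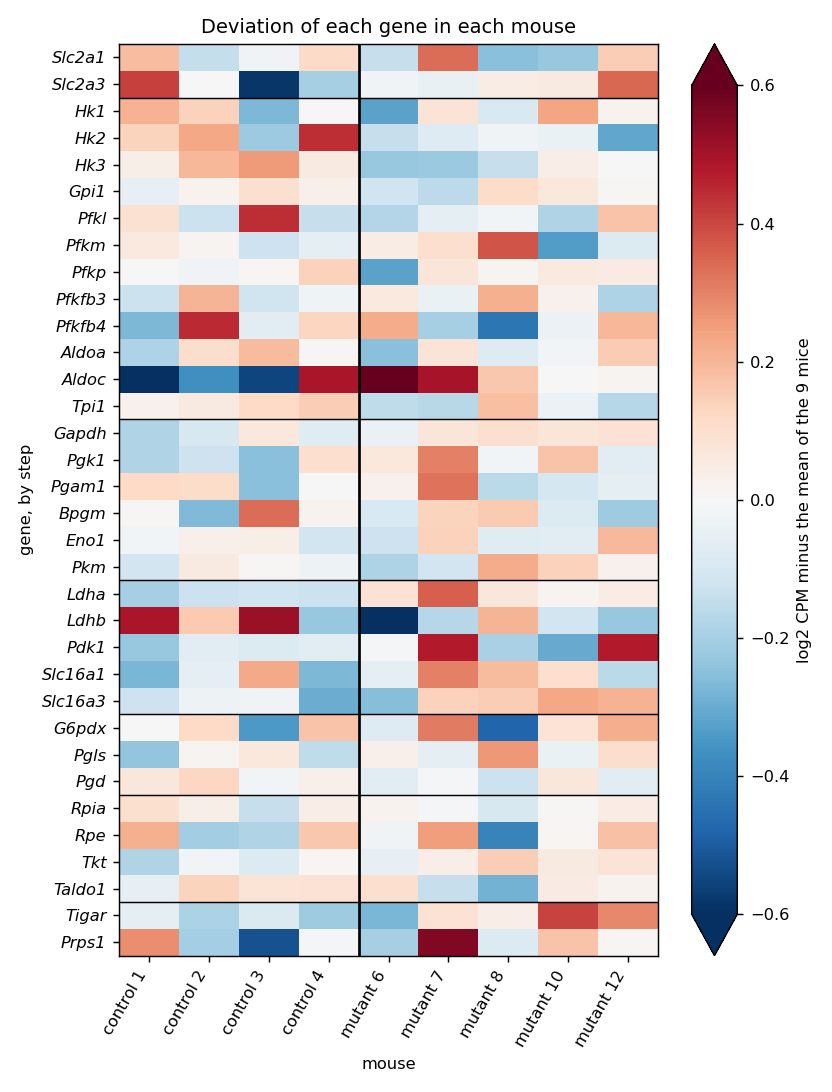
Deviation of each gene's log2 CPM from its mean over the 9 mice, with genes as rows by step (black lines) and mice as columns (controls left of the vertical line). Red is above and blue below the mean. Ldha is blue in all controls and red in all mutants, and most other rows hold both colours in both groups.

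The members did not rank the mice in 1 order. Of the 34 genes, 8 were highest of the 9 mice in mutant 7 and 8 in mutant 8, while 8 were lowest in mutant 6 and 6 in mutant 8. Mutant 8 was thus at an extreme for 14 of them in both directions. The spread was wider in mutants for some members and wider in controls for others. For Pdk1 the SD was 6.28 CPM in mutants (n = 5) and 1.12 CPM in controls (n = 4). For Tigar it was 6.10 CPM in mutants and 1.54 CPM in controls. For Hk2 it was 1.81 CPM in mutants and 5.15 CPM in controls, and for Slc2a3 1.07 CPM and 2.45 CPM.

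The choice between alternative genes of 1 step was compared as a log2 ratio within each mouse. The difference in mean log2 ratio, mutant minus control, was -0.23 for Slc2a1 to Slc2a3 (exact permutation p = 0.278), 0.061 for Pfkp to Pfkl (exact permutation p = 0.73) and -0.045 for Slc16a1 to Slc16a3 (exact permutation p = 0.754). These 2-sided tests ran over every way to divide the 9 mice into 5 and 4 and could give no p below 0.00794, and each adjusted p over the 3 ratios was 0.754. The ratio of Hk2 to Hk3 differed by -0.018 and was not tested, since it was picked with the values of its genes in view.

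**Figure D4:**
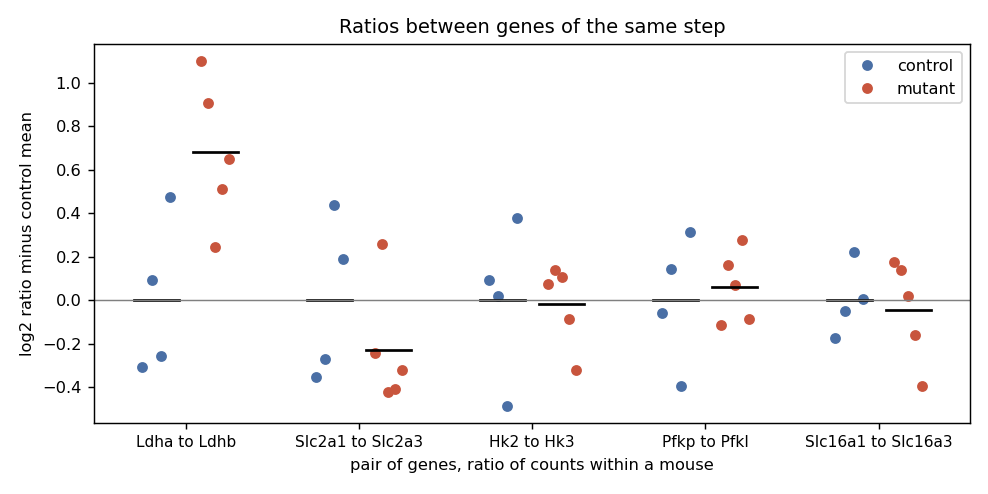
The log2 ratio of 2 genes' counts in each mouse (points), less the control mean of that ratio, for 5 pairs, with group means as black bars, for 4 control and 5 mutant mice. The Ldha to Ldhb means lie 0.68 apart, and in the other 4 pairs the means lie within 0.23 of each other.

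A further 53 genes of the same pathways were examined, of which 35 passed the filter on low counts, 20 of them above 0 and 15 below, with a median of 0.011. None was called. At an unadjusted p under 0.05 there were 2 higher and 3 lower, beside 4.96% and 4.89% of all genes. Fbp1, which encodes the fructose bisphosphatase that runs the phosphofructokinase step backwards, had 8.61, 9.20, 14.7 and 16.8 CPM in controls and 22.2, 16.4, 29.3, 31.9 and 17.2 CPM in mutants. Only mutant 7 was inside the control range, at a log2 difference of 0.92 (SE 0.25, edgeR adjusted p = 0.266). Slc16a6, which encodes the monocarboxylate carrier MCT7, had 107, 97.7, 93.8 and 104 CPM in controls and 79.5, 81.0, 65.7, 78.4 and 90.3 CPM in mutants. Every mutant was below every control (-0.35, SE 0.10, edgeR adjusted p = 0.285).

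The other 3 were Pgm3, a phosphoglucomutase family gene of hexosamine synthesis, at 0.46 (SE 0.17), Adpgk, the ADP-dependent glucokinase gene, at -0.32 (SE 0.13), and Pdk2, a pyruvate dehydrogenase kinase gene at 1.48 ± 0.44 CPM over the controls and 0.763 ± 0.332 CPM over the mutants (SD, n = 4 and 5). Their edgeR adjusted p-values were 0.403, 0.426 and 0.408. Among the 18 genes not tested, the glucose carrier genes Slc2a2 and Slc2a4 were at 0 in all mice.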

How the data were processed

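The authors deposited 1 table of estimated counts for 18 libraries of 9 mice, made with Salmon 1.3 on GRCm38 per the submitters' processing notes. The strand setting, use of molecular identifiers and annotation are not stated in the sources used here. Of the values, 11.3% were not whole. Symbols came from GENCODE mouse release 21 by the first 18 characters of an ID, and 54094 IDs had one while 253 (0.00977% of counts) did not. A 2nd row that maps to Aldoa held 1 count and was not tested.

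Both libraries were added up per mouse, and the sums rounded to whole numbers. Totals were 3825500 to 15071673 per library. All genes were fitted with edgeR 4.0.16 in R 4.3.3 (minimum count 10 in filterByExpr, TMM factors, quasi-likelihood F-test, no covariate), and p-values are 2-sided and adjusted by Benjamini-Hochberg over 12973 genes. The step was run on simulated data in which the changed genes had larger fold changes than any member. That run does not show whether differences of the members' size would be called. The ratio tests used 3 of 5 ratios, and their adjustment ran over those 3, since the others were picked with the values of their genes in view.

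Members and lists were chosen with earlier results of these data known. Values in every mouse are given for members at an unadjusted p under 0.05 and for at least 1 key gene of a step. Further genes at an unadjusted p under 0.05, at most 6, are named. Of these, Fbp1 and Slc16a6 have values in every mouse, and Pgm3, Adpgk and Pdk2 summary values. Tigar was added after its values were seen. Alternatives were DESeq2 1.42.0, limma-voom (limma 3.58.1), other scalings, filters, single technical libraries, a total count covariate, thinning, a threshold of 0.1 and each mouse left out. Summing all near-identical copies was added after the data were seen. Copies were sought with BLAST 2.17.0 (95% identity over 200 bases in the last 500). Promoters are from RefSeq on GRCm38.p6, and gene positions from GENCODE on GRCm38.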

Additional observations from a re-analysis of the deposited data

Results flagged for a closer look

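Of 78 groups of values checked (all members and ratios in each group of mice), 8 held a mouse far from the others of its group, where chance gives about 1 in 20. In mutants these were Slc2a3 at 11.15 CPM in mutant 12, Ldha at 527 CPM in mutant 7, and Pfkp at 43.6 CPM, Gapdh at 3288 CPM and Slc16a3 at 31.8 CPM in mutant 6. The log2 ratio of Slc2a1 to Slc2a3 was 1.52 in mutant 7, above the other mutants. In controls, mouse 1 was low for Ldha at 359 CPM and for Pdk1 at 19.1 CPM, and in both genes the other 3 controls lay close together. Control 1 had the smallest total count, 11766467, and mutant 6 was the lowest of the 9 mice for 8 of the 34 genes. The part of depth in these values was not tested.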

How the results depend on the processing

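No member was called under any of the alternatives tried, including a threshold of 0.1, and the smallest adjusted p among them was 0.195 (DESeq2, Ldha). The number of members above 0 ran from 16 to 22 and their median from -0.021 to 0.05. The number of all genes called was 9, and 90 with DESeq2, 21 without a filter on low counts, 4 after thinning, 3 in the second technical libraries, 0 in the first, and 0 for genes averaging 10 CPM or more, without the first library of mutant 7 or with the total count as a covariate. Leaving out each mouse gave 0 to 7. Members at an unadjusted p under 0.05 numbered 2 with limma-voom, 0 in the first technical libraries and 1 with the covariate, and 1 to 5 with a mouse left out. Of 394 alternative values for the 18 named members, 370 kept their direction and 24 reversed, and 10 members, among them Ldha, Ldhb, Hk2 and Hk3, reversed in none.

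The reversed values were these, and the cause was not tested. In the first technical libraries Slc2a1 was at 0.109, Pfkp at 0.03 and the log2 ratio of Slc16a1 to Slc16a3 at 0.093. In the second, Slc2a3 was at -0.118, Aldoa at 0.028, G6pdx at -0.197 and the ratio of Pfkp to Pfkl at -0.07. Without the first library of mutant 7, Pfkfb3 was at -0.018 and Aldoa at 0.001. With the covariate, Pfkfb3 was at -0.121, Pkm at -0.02 and Slc16a1 at -0.083. With each mouse left out, Slc2a1 ran from -0.148 to 0.011, Slc2a3 from -0.006 to 0.318, Pfkp from -0.073 to 0.017, Pfkfb3 from -0.023 to 0.11, Aldoa from -0.121 to 0.003, Pkm from -0.007 to 0.095 and G6pdx from -0.059 to 0.143. The ratio of Pfkp to Pfkl ran from -0.071 to 0.166 and that of Slc16a1 to Slc16a3 from -0.104 to 0.042. The untested ratio of Hk2 to Hk3, at -0.018, also took either sign, with 0.133 in the first technical libraries and -0.18 to 0.107 with a mouse left out.

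No paired analysis was possible because mouse numbers are not shared between the groups. With a mean of at least 10 CPM, 29 members were tested. Depth limits Aldoc, with 20 counts in the shallowest mouse. Pfkm, Pfkp, Tpi1, Gapdh, G6pdx, Pgls and Rpe each overlap another gene with 957 or more counts over all mice. Their counts are uncertain to the extent that its reads were assigned to them. The gene at Pgls lies on the same strand and those at the other members on the opposite strand. The overlapping gene had 5299 counts at Pfkm, which had 607, and 8639 at Pfkp, which had 8958. At Gapdh, with 557506 counts, it had 5528. Among overlapping genes with fewer counts were Hk1os (261) at Hk1, Gm49759 (160) at Pkm, Unc5a (117) at Hk3 and Gm17034 (27) at Hk2. Gapdh has 74 near-identical copies with counts, which hold 5.97% as many counts as Gapdh itself. Summed with them, Gapdh was at 0.136 (SE 0.083).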
